A study of Mus musculus with 16 samples.

Results

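The genes described here are 36 genes of the endoplasmic reticulum (ER) that fold, modify, import or degrade secretory proteins, or that sense unfolded protein in this compartment. They were taken by name from a list, with no change between groups used in the choice. The list holds 8 luminal chaperones and co-chaperones, 7 disulfide isomerases and relatives, 2 lectin chaperones, 5 sensors and signalling genes, 6 genes of ER-associated degradation and 8 genes of the translocon, the TRAP complex and the signal peptidase. All 36 were measured, among 12393 genes in all, each through its brightest probe set that carries a single gene symbol.

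The data are 16 Affymetrix arrays of the 430A 2.0 design, in 5 groups, hybridised with RNA of J1 cells, a mouse embryonic stem (ES) cell line. The study asked how expression changes when Tgif1 or its relative Tgif2, homeodomain repressors of transcription, is lowered or raised. The knockdown arm held 2 Tgif1 KD arrays and 2 shControl arrays. The overexpression arm held 4 Tgif1 OE arrays, 4 Tgif2 OE arrays and 4 BirA control arrays, from cells labelled as overexpressing BirA, a bacterial biotin ligase. All groups were J1 cells on gelatin in medium with serum and leukaemia inhibitory factor. The labels give no hairpin, vector, clone or time after the perturbation for any group. Nothing in them tells if replicates came from different cultures, so a p-value below reflects the spread among these arrays alone, and that spread may be technical. Each value is a log2 intensity, and the signals of different genes are not set against each other, because probe sets differ in brightness.

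The ER receives proteins that will be secreted or placed in membranes. Chaperones of the lumen bind them while they fold, disulfide isomerases join their cysteines, and proteins that fail to fold are pulled back into the cytosol for degradation. When unfolded protein builds up, the membrane sensors encoded by Ern1 (IRE1), Eif2ak3 (PERK) and Atf6 start the unfolded protein response. IRE1 splices the Xbp1 mRNA, PERK slows translation through the initiation factor eIF2, and the cleaved ATF6 and spliced XBP1 proteins act as transcription factors on chaperone and degradation genes. A short DNA element called ERSE, which ATF6 binds together with the CCAAT-binding factor NF-Y, lies in many chaperone promoters.

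ERSE sequences are shown because 7 of the 8 genes that carry one rose in the knockdown. Of the 36 genes, 28 had a promoter in the RefSeq table of build GRCm38.p6, which covers 250 bases before and 50 after the transcription start. The letters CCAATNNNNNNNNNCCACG, searched on both strands (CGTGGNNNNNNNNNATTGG on the other), occurred for 8 of these 28 genes (28.6%), against 37 of all 27025 genes with a promoter there (0.137%). The element contains a CCAAT box, which alone occurred for 21 of the 28 (75%) and for 41.1% of all genes with a promoter. The 8 genes were Hspa5, Hsp90b1 with 2 matches, Dnajc3, Pdia6, Creld2, Calr, Canx and Syvn1. A match is a description of letters, not a binding site shown by these data. The windows lie at chr2:34772010-34772058 for Hspa5 (plus strand), chr10:86705623-86705671 and chr10:86705518-86705566 for Hsp90b1 (minus strand), chr14:118937812-118937860 for Dnajc3 (plus strand) and chr12:17266476-17266524 for Pdia6 (plus strand). The others lie at chr15:88819505-88819553 for Creld2 (plus strand), chr8:84847060-84847108 for Calr (minus strand), chr11:50325785-50325833 for Canx (minus strand) and chr19:6046517-6046565 for Syvn1 (plus strand). Each is written 5′ to 3′ along the gene's strand, with the matching letters in capitals.
Hspa5: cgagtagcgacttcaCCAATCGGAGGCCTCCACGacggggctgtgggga
Hsp90b1, far match: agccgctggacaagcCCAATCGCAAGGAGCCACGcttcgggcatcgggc
Hsp90b1, near match: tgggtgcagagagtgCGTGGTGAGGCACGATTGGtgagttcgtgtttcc
Dnajc3: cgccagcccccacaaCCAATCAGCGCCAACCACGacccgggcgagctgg
Pdia6: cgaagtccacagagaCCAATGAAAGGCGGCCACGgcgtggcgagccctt
Creld2: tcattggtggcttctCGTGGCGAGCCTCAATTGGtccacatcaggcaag
Calr: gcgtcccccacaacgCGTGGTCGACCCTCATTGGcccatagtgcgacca
Canx: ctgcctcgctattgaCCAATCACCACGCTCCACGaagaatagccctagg
Syvn1: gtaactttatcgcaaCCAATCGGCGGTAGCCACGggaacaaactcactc

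The capitals begin between 44 bases (Syvn1) and 212 bases (the far match of Hsp90b1) before the transcription start. In Hspa5 they begin 65 bases before it. A shorter relative of the element, ERSE-II, is spelled ATTGGNCCACG (CGTGGNCCAAT on the other strand). It occurred for 2 of the 28 genes, Dnajb11 and Herpud1, and for 0.0444% of all genes with a promoter. The Herpud1 match lies in the window chr8:94386362-94386402 (plus strand), with its first capital 52 bases before the start. It is shown because Herpud1 had the largest change of the 36 genes in size in the knockdown.
Herpud1: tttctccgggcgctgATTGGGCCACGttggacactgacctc

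As a check of the labels, the Tgif1 probe set read 7.46 and 7.12 on the Tgif1 KD arrays, against 10.71 and 10.66 on the shControl arrays. The signal was lower on both knockdown arrays (change -3.39 ± 0.10 SE, adjusted p = 3.88e-11). On the Tgif1 OE arrays it read 10.25, 10.14, 10.06 and 10.02, against 10.65, 10.67, 10.70 and 10.74 on BirA control arrays, so it was lower and not higher there (change -0.58 ± 0.07, adjusted p = 5.52e-05). The Tgif2 probe set read 9.30, 9.42, 9.29 and 9.47 on the Tgif2 OE arrays, against 9.36, 9.28, 9.24 and 9.17 on BirA control arrays, and these ranges overlap. Tgif2 was higher on Tgif1 KD than on shControl (0.81 ± 0.09, 1.75-fold, adjusted p = 1.60e-05) and lower on Tgif1 OE than on BirA control (-0.45 ± 0.07, adjusted p = 1.86e-04), and Tgif1 was lower on Tgif2 OE than on BirA control (-0.42 ± 0.07, adjusted p = 4.57e-04). The overexpression groups are therefore named by their labels, and directions drawn from them are those of the libraries labelled Tgif1 OE and Tgif2 OE. All 8 ES cell markers on a list (Pou5f1, Sox2, Nanog, Zfp42, Dppa5a, Utf1, Tdgf1 and Esrrb) averaged above a log2 intensity of 6 in every group. Of these 8, 0 were higher and 5 lower on Tgif1 OE than on BirA control, 1 higher and 1 lower on Tgif2 OE, and 1 higher and 0 lower on Tgif1 KD than on shControl. Of 7 measured blood cell markers, 6 averaged below 6 in every group. Pairs of arrays correlated at 0.972 to 0.999 over all probe sets.

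In Tgif1 KD cells 15 of the 36 ER genes rose and 0 fell at an adjusted p under 0.05 (limma, adjusted over all genes). The 15 are 41.7% of the list, where 12.5% of all genes rose and 12.9% fell. The median change of all 36 was 0.23 log2, against -0.05 for all genes, and 27 of the 36 changes were positive. At an unadjusted p under 0.05, 0 of the 36 were lower. Lack of overlap between groups, given below for single genes, is easily met with 2 arrays per group. It held also for genes that did not pass. Dnajb11, Manf, Pdia3, Edem1, Herpud1, Derl1, Sec61a1, Sec61b, Ssr1, Ssr4, Spcs2 and Spcs3 lay above the controls in this way. Hyou1, Dnajb9, Sdf2l1, Erp29, Dnajc10 and Ern1 lay below them. Its share over all genes was not counted in any comparison, so it describes the arrays and is not support for a change. The genes that rose came from every role: 3 luminal chaperones, 3 of the disulfide isomerase group, both lectin chaperones, 3 sensors and signalling genes, 2 degradation genes and 2 TRAP subunits. With 1 array left out the count was 9 to 11 higher and 0 lower, 9 being the count without Tgif1 KD replicate 2. In bulk samples, a changed share of some cells and a changed amount of RNA per cell cannot be told apart, here and in every comparison below.

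**Figure D1:**
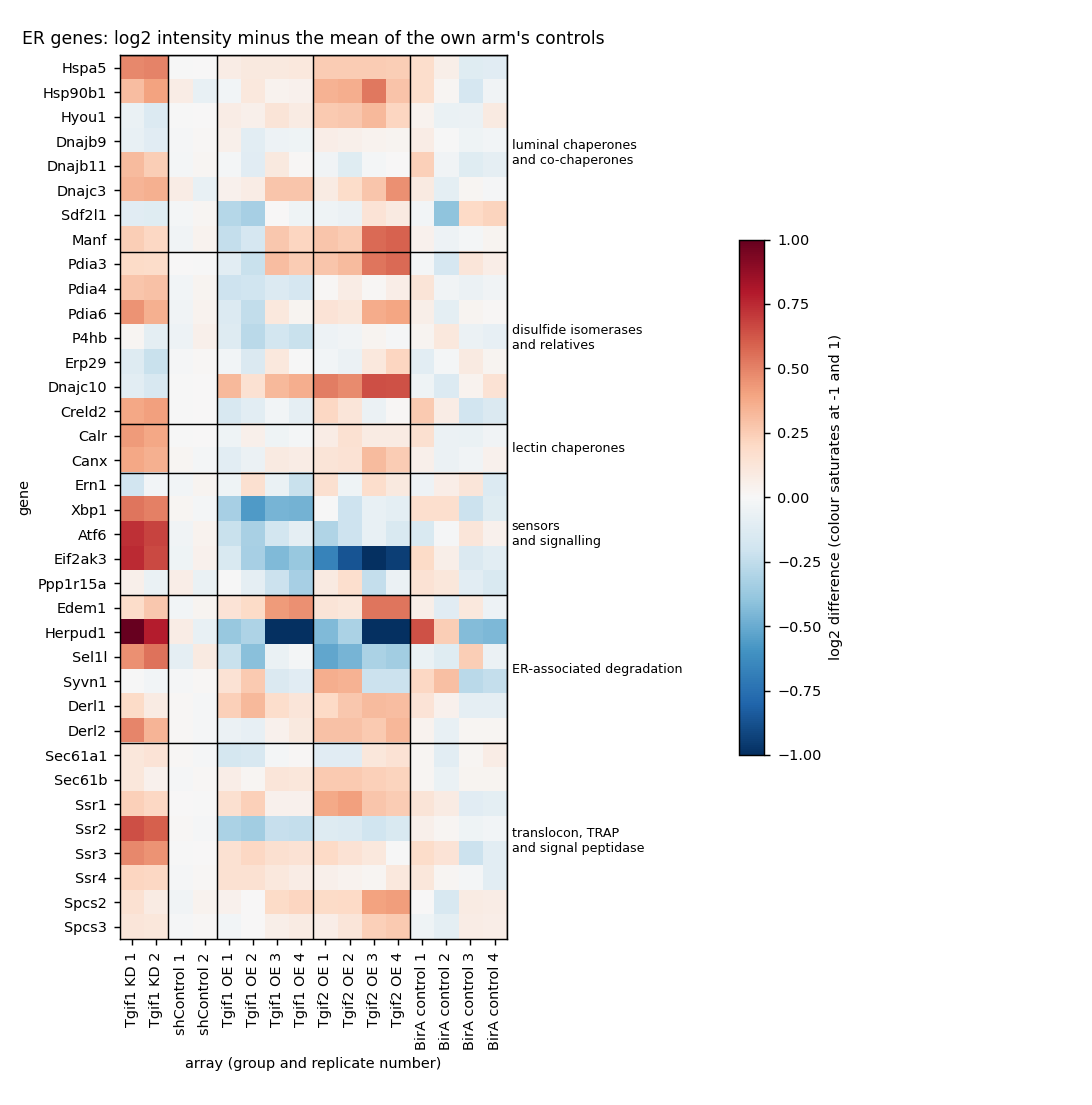
Heat map of the 36 ER genes (rows, grouped by role) on the 16 arrays (columns, grouped by condition), coloured by log2 intensity minus the mean of the control arrays of the same arm (red higher, blue lower, saturating at -1 and 1). The 2 Tgif1 KD columns are red for most genes in all 6 roles, while the Tgif1 OE and Tgif2 OE columns mix both colours and, for Herpud1, differ between replicates 1 and 2 and replicates 3 and 4.

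Among the luminal chaperones, Hspa5 encodes BiP, the main Hsp70 of the ER. It read 12.98 and 13.00 on the Tgif1 KD arrays, against 12.50 and 12.50 on the shControl arrays, a rise of 0.49 ± 0.09 log2 or 1.40-fold (adjusted p = 6.52e-04). Hsp90b1 encodes Grp94, the Hsp90 of the ER. It read 11.98 and 12.07 on Tgif1 KD, against 11.74 and 11.60 on shControl (0.35 ± 0.11, adjusted p = 0.0225). Dnajc3 (P58IPK), a co-chaperone of BiP, rose by 0.35 ± 0.12 (adjusted p = 0.0400). For all 3 genes both knockdown arrays lay above both control arrays. The other 5 did not pass: the change was 0.28 ± 0.11 (adjusted p = 0.0660) for Dnajb11, an Hsp40 partner of BiP, 0.22 ± 0.16 for Manf, and -0.10, -0.09 and -0.12 for Hyou1, Dnajb9 and Sdf2l1. Hspa5 has a further probe set, which rose as well (0.66 ± 0.17, adjusted p = 0.00960 over all probe sets). The Hsp90b1 call was lost when certain single arrays were left out (adjusted p up to 0.173). That of Dnajc3 was lost whichever knockdown-arm array was left out, and with the mean of its probe sets (adjusted p up to 0.241). The Hspa5 call held without any single array.

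The level of Hspa5 in knockdown cells was not high for the series as a whole. It averaged 12.99 ± 0.01 (SD, n = 2) on Tgif1 KD and 12.50 ± 0.001 (n = 2) on shControl, but 13.05 ± 0.01, 13.21 ± 0.01 and 12.96 ± 0.14 (n = 4 each) on Tgif1 OE, Tgif2 OE and BirA control. The shControl arrays were the low ones for Hspa5 and also for Hsp90b1, which averaged 11.67 ± 0.10 there and 12.40 ± 0.14 on BirA control. In a comparison of the control groups added after the data were seen, shControl was below BirA control by -0.46 ± 0.08 for Hspa5 (adjusted p = 6.65e-04) and by -0.73 ± 0.09 for Hsp90b1 (adjusted p = 8.21e-05). It also passed as lower for Hyou1, Dnajb11, Pdia3, Pdia4, Pdia6, Derl1, Sec61a1 and Ssr2 (-0.19 to -0.42), and as higher for Dnajc10, Xbp1 and Ssr4 (0.25 to 0.44). Of these, Pdia4, Pdia6, Ssr2 and Xbp1 were among the genes that rose in the knockdown. The shares over all genes were not counted for this comparison. Both knockdown arrays lay above all 14 other arrays for 8 of the 36 genes (Calr, Xbp1, Atf6, Eif2ak3, Sel1l, Ssr2, Ssr3 and Ssr4) and below all of them for 3 (Hyou1, Dnajb9 and Erp29). Over all genes these shares were 15.9% above and 16.3% below, and nothing particular to the ER genes is read from these counts.

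**Figure D2:**
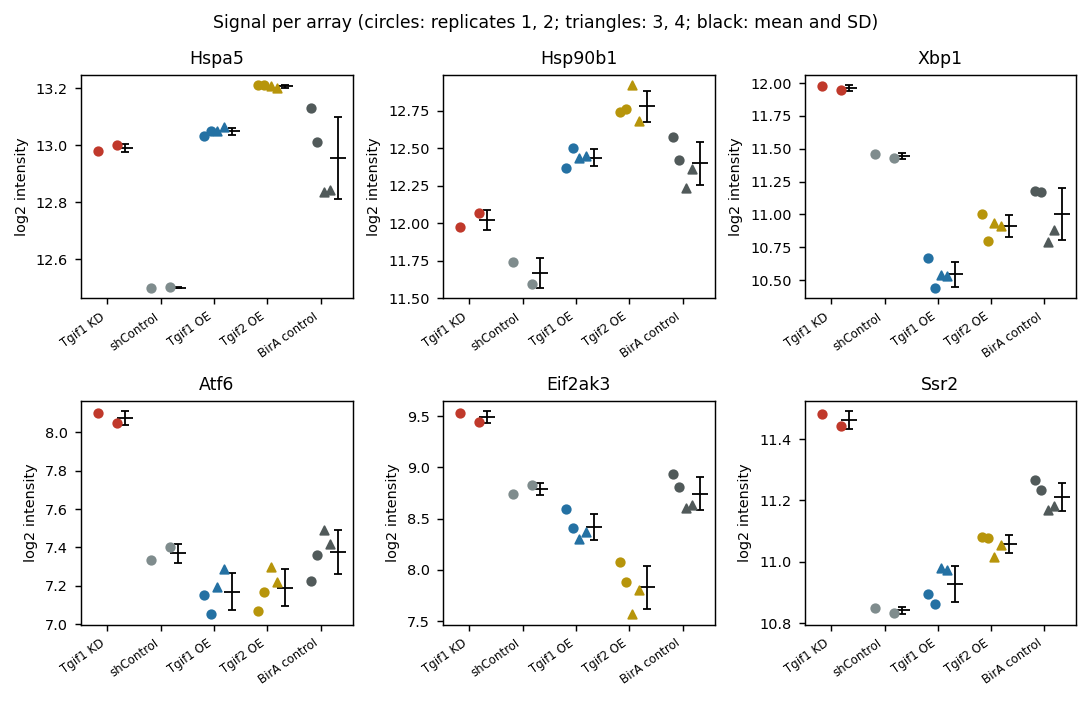
Log2 intensity (vertical axes, which do not start at 0) of Hspa5, Hsp90b1, Xbp1, Atf6, Eif2ak3 and Ssr2 on every array, by group, with circles for replicates 1 and 2, triangles for replicates 3 and 4, and black marks for mean and SD. For Xbp1, Atf6, Eif2ak3 and Ssr2 the 2 Tgif1 KD arrays are the highest of the series; for Hspa5 and Hsp90b1 the 2 shControl arrays are the lowest.

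Among the disulfide isomerases, Pdia6, Pdia4 and Creld2 rose in the knockdown. Pdia6 read 10.74 and 10.65 on Tgif1 KD, against 10.26 and 10.33 on shControl (0.40 ± 0.12, adjusted p = 0.0231), with no overlap. Creld2, a secreted and ER-resident stress-response protein, rose by 0.40 ± 0.12 (adjusted p = 0.0288) and Pdia4 by 0.29 ± 0.07 (adjusted p = 0.00961). Pdia3, the isomerase that works with calnexin and calreticulin, had a change of 0.19 ± 0.16 (adjusted p = 0.435). The other 3 had small negative values that did not pass, -0.04 for P4hb, -0.18 for Erp29 and -0.13 for Dnajc10. The lectin chaperones hold glycoproteins during folding, Calr as the soluble calreticulin and Canx as the membrane-bound calnexin. Calr read 12.14 and 12.09 on Tgif1 KD, against 11.71 and 11.71 on shControl (0.41 ± 0.08, adjusted p = 0.00159), again without overlap. Canx rose by 0.37 ± 0.09 (adjusted p = 0.00551), but its probe sets disagree: of the other 2, the brighter rose by 0.65 ± 0.12 and the dimmer fell, at -0.54 ± 0.12, and the mean of the 3 did not pass (0.16, adjusted p = 0.251). The Pdia4 call was likewise lost with the mean of its probe sets, the other of which is dim (0.02, adjusted p = 0.871). The Pdia6 and Creld2 calls were lost without any 1 of the 4 knockdown-arm arrays (adjusted p up to 0.137 and 0.117), and the Pdia4 call without Tgif1 KD replicate 2 or shControl replicate 1.

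Of the 6 roles, the sensors and signalling genes had the highest median change, 0.52, and 3 of the 5 rose. Atf6 read 8.10 and 8.05 on the Tgif1 KD arrays, against 7.33 and 7.40 on the shControl arrays (0.70 ± 0.10, 1.63-fold, adjusted p = 1.06e-04). Eif2ak3, which encodes the PERK kinase, read 9.53 and 9.44 on Tgif1 KD, against 8.74 and 8.83 on shControl (0.70 ± 0.14, 1.63-fold, adjusted p = 0.00207). Xbp1 read 11.98 and 11.94 on Tgif1 KD, against 11.46 and 11.43 on shControl (0.52 ± 0.12, 1.43-fold, adjusted p = 0.00523). In all 3 the knockdown arrays lay clear of the controls, and the arrays do not separate spliced from unspliced Xbp1. The other 3 Xbp1 probe sets had changes of 0.22 to 0.47, and the brightest of them also passed (0.47 ± 0.14, adjusted p = 0.0193 over all probe sets). Eif2ak3 rests on 1 bright probe set; its other 2 averaged 3.40 and 3.66 over the arrays, with changes of 0.08 and -0.02, and the mean of all 3 did not pass (0.26). Ern1, the IRE1 sensor, was dim, at 5.38 and 5.54 on Tgif1 KD against 5.55 and 5.60 on shControl (-0.11 ± 0.12, adjusted p = 0.559). Ppp1r15a (GADD34), the phosphatase subunit that reverses the PERK signal, had a change of -0.01 ± 0.14 (adjusted p = 0.968).

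ER-associated degradation carries misfolded proteins through a membrane complex built around the ubiquitin ligase Syvn1 and its partner Sel1l. Sel1l read 7.26 and 7.35 on Tgif1 KD, against 6.72 and 6.89 on shControl (0.50 ± 0.14, adjusted p = 0.0137). Derl2, a derlin of the retrotranslocation channel, read 9.67 and 9.52 on Tgif1 KD, against 9.20 and 9.17 on shControl (0.41 ± 0.08, adjusted p = 0.00115). Neither gene's groups overlap, and the other 3 Sel1l probe sets, all dimmer, had changes of 0.75, 0.78 and 0.04. The Sel1l call was lost without Tgif1 KD replicate 2 or shControl replicate 1 (adjusted p up to 0.115). The ligase Syvn1 read 7.52 and 7.49 on Tgif1 KD, against 7.51 and 7.53 on shControl, and there the groups overlap (-0.01 ± 0.23, adjusted p = 0.975). Herpud1, a membrane adaptor of the same complex and a well-known stress-induced gene, had the largest change of the 36. It read 9.01 and 8.72 on Tgif1 KD, against 8.01 and 7.87 on shControl (0.93 ± 0.45, adjusted p = 0.151). Its knockdown arrays lay above both controls, and its error is that of the fit over all 16 arrays, among which it differed between array pairs of the overexpression arm, as given below. A second Herpud1 probe set rose, with a smaller error (0.99 ± 0.22, adjusted p = 0.00460 over all probe sets), and the mean of both passed as well (adjusted p = 0.0423). Edem1 and Derl1 had changes of 0.23 ± 0.15 and 0.13 ± 0.09 and did not pass.

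Proteins enter the ER through the Sec61 channel, next to which the TRAP complex (Ssr1 to Ssr4) sits, and signal peptidase (Spcs2 and Spcs3 among its subunits) removes their signal peptides. Ssr2 read 11.48 and 11.44 on Tgif1 KD, against 10.85 and 10.83 on shControl (0.62 ± 0.07, 1.54-fold, adjusted p = 1.11e-05). Ssr3 read 11.58 and 11.55 on Tgif1 KD, against 11.10 and 11.11 on shControl (0.47 ± 0.11, adjusted p = 0.00636). The groups were apart in both, and Ssr2 had the smallest adjusted p of the 36. The other TRAP subunits had smaller positive values that did not pass, 0.22 ± 0.10 for Ssr1 (adjusted p = 0.113) and 0.21 ± 0.07 for Ssr4 (adjusted p = 0.0535). The channel subunits Sec61a1 and Sec61b had changes of 0.12 ± 0.10 and 0.08 ± 0.07, and Spcs2 and Spcs3 of 0.12 ± 0.11 and 0.12 ± 0.08.

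Against the promoter letters shown above, 7 of the 8 genes with an ERSE match rose in the knockdown, Syvn1 being the exception, and their median change was 0.385. Of the 20 genes with a promoter and no match, 6 rose, with a median of 0.22. Neither gene with an ERSE-II match passed. Outside the list, 10 genes on the array had an ERSE match, and 1 of them rose, Ero1b (0.98 ± 0.13, adjusted p = 5.54e-05), the oxidase that recharges disulfide isomerases. Over all genes 12.5% rose. Of the 7 listed genes with a match that rose, only Hspa5 and Calr kept their calls in every alternative setting. Dnajc3, Pdia6 and Creld2 lost theirs whichever single knockdown-arm array was left out. Hsp90b1 lost its call without certain single arrays, and Canx with the mean of its probe sets. The ERSE sequences were shown because of this count, and no test of these counts was made.

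Of 67 other measured genes of ER folding, glycosylation, translocation and degradation, 19 rose and 4 fell in the knockdown, with a median of 0.19. Examples are Sec11c, a catalytic subunit of signal peptidase (1.16 ± 0.12, adjusted p = 5.32e-06), Magt1, an oligosaccharyltransferase subunit (0.95 ± 0.15, adjusted p = 2.50e-04), Fkbp7, a prolyl isomerase of the ER (0.95 ± 0.11, adjusted p = 1.46e-05), and the degradation lectin Os9 (0.68 ± 0.12, adjusted p = 8.25e-04). Srpr, the receptor of the signal recognition particle, was among those that fell (-0.35 ± 0.09, adjusted p = 0.00788). Of 24 chaperones of the cytosol and mitochondria, 2 rose and 2 fell, with a median of -0.04, the risen genes being Hspa4l (1.16 ± 0.13, adjusted p = 1.42e-05) and the mitochondrial Hsp70 gene Hspa9 (0.40 ± 0.07, adjusted p = 9.20e-04). Of 12 stress-signalling genes outside both sets, 6 rose and 1 fell, among them Ddit3, which encodes the stress factor CHOP (0.77 ± 0.17, adjusted p = 0.00426), and the asparagine synthetase gene Asns (0.76 ± 0.17, adjusted p = 0.00441).

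Some values that could bear on the knockdown comparison moved with it. The 5′ minus 3′ difference of the Gapdh control probe sets averaged -0.09 on Tgif1 KD and -0.21 on shControl, and that of Actb -0.51 and -0.64, each Tgif1 KD array being above each shControl array. Of 12 primitive endoderm markers, 5 were higher on Tgif1 KD and 0 lower, and their summed intensity was 5433 to 5694, against 3880 to 3883 on shControl, with 7 of the 12 below a log2 intensity of 6 on Tgif1 KD. The part of either in the changes above was not tested.

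**Figure D3:**
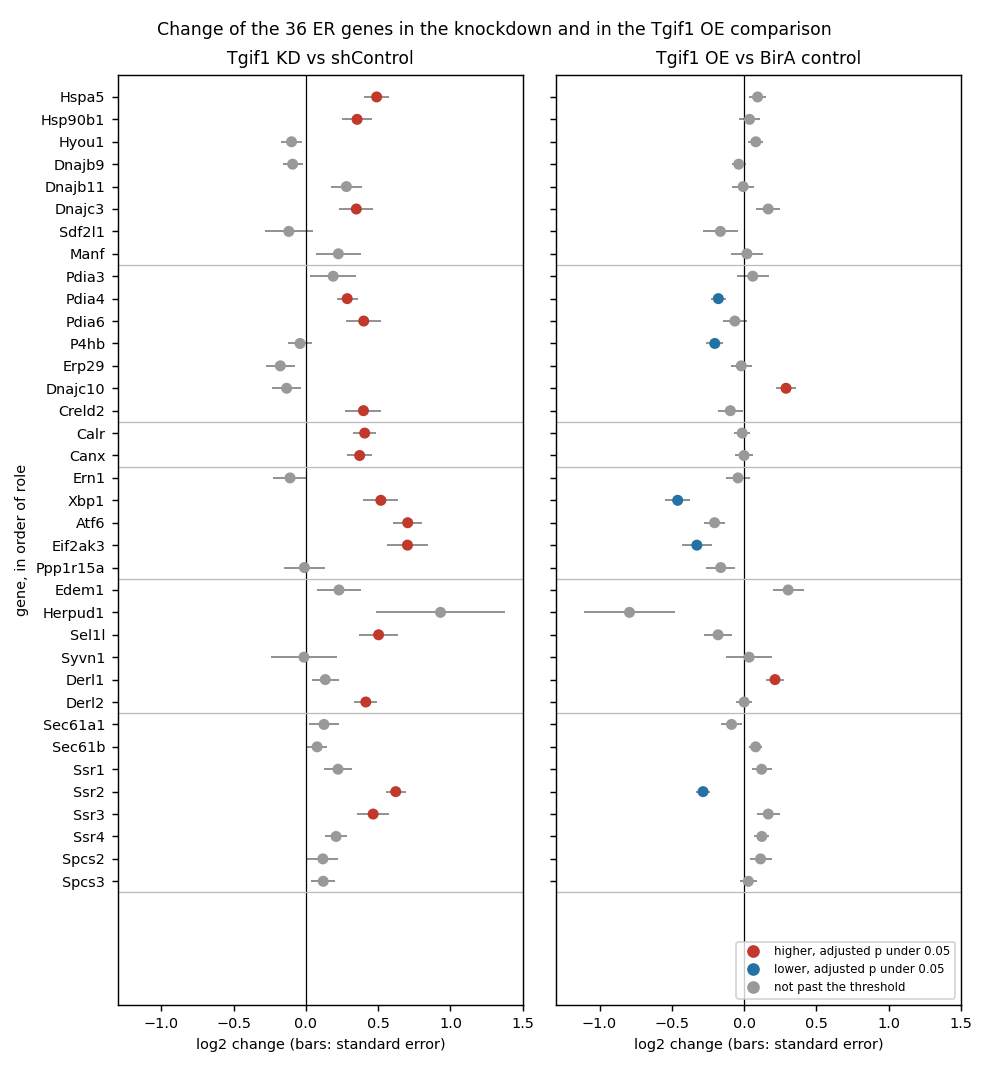
Log2 change (horizontal axes, bars for standard error) of each of the 36 ER genes in order of role, for Tgif1 KD over shControl on the left and Tgif1 OE over BirA control on the right; red points passed as higher, blue as lower, grey did not pass. On the left 15 points are red and none is blue, and on the right 2 are red and 5 are blue.

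On the Tgif1 OE arrays single ER genes moved both ways. Of the 36 genes, 2 were higher than on BirA control and 5 lower, where 11.4% of all genes were higher and 9.51% lower. The median change was -0.003 for the 36 and 0.01 for all genes. The 2 higher genes are 5.56% of the list and the 5 lower ones 13.9%. These counts depend on how the array pairs described below are treated: they were 6 higher and 8 lower with the pair as a fixed block, 1 and 8 with replicates 1 and 2 alone, and 8 and 6 with replicates 3 and 4 alone, where Hspa5 (0.22, adjusted p = 0.0118) and Manf (0.24, adjusted p = 0.0129) were among the higher genes. Over all 4 replicates none of the 8 luminal chaperones and neither lectin chaperone passed, whereas 2 of the 5 sensors and signalling genes were lower. A second Canx probe set was lower, however (-0.34 ± 0.08, adjusted p = 0.01025 over all probe sets), against a change of -0.0002 for the one used. The third Canx probe set changed by -0.09 and did not pass.

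Xbp1 had the largest change that passed. It read 10.67, 10.44, 10.54 and 10.54 on Tgif1 OE, against 11.18, 11.17, 10.79 and 10.88 on BirA control (-0.46 ± 0.09, 0.727 of the control signal, adjusted p = 0.00133). Ssr2 read 10.90, 10.86, 10.98 and 10.97 on Tgif1 OE, against 11.26, 11.23, 11.17 and 11.18 on BirA control (-0.28 ± 0.05, adjusted p = 6.55e-04). Every Tgif1 OE array was below every control array for both genes, and these were the only 2 of the 7 calls that held in all 19 alternative settings. Eif2ak3 read 8.59, 8.41, 8.30 and 8.37 on Tgif1 OE, against 8.94, 8.80, 8.60 and 8.64 on BirA control (-0.33 ± 0.10, adjusted p = 0.0346). Pdia4 read 9.80, 9.81, 9.87 and 9.84 on Tgif1 OE, against 10.14, 9.97, 9.95 and 9.97 on BirA control (-0.18 ± 0.05, adjusted p = 0.0240). P4hb, the classical protein disulfide isomerase, read 11.62, 11.48, 11.56 and 11.52 on Tgif1 OE, against 11.78, 11.85, 11.69 and 11.67 on BirA control (-0.20 ± 0.06, adjusted p = 0.0205). These 3 also had no overlap between groups, though for Eif2ak3 the first Tgif1 OE array came close to the third control array.

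The 2 genes that were higher are an ER reductase and a derlin. Dnajc10 (ERdj5), which reduces disulfides of proteins bound for degradation, read 9.76, 9.59, 9.77 and 9.80 on Tgif1 OE, against 9.40, 9.30, 9.48 and 9.59 on BirA control (0.29 ± 0.07, adjusted p = 0.00804). Derl1 read 10.38, 10.47, 10.31 and 10.26 on Tgif1 OE, against 10.28, 10.18, 10.05 and 10.05 on BirA control (0.21 ± 0.07, adjusted p = 0.0304). Derl1 overlaps between the groups, and Dnajc10 does not, though Tgif1 OE replicate 2 and BirA control replicate 4 are equal when rounded. The chaperone Hspa5 read 13.03, 13.05, 13.05 and 13.06 on Tgif1 OE, against 13.13, 13.01, 12.84 and 12.84 on BirA control (0.09 ± 0.06, adjusted p = 0.337). Hsp90b1 read 12.37, 12.50, 12.44 and 12.45 on Tgif1 OE, against 12.58, 12.42, 12.24 and 12.36 on BirA control (0.04 ± 0.07, adjusted p = 0.790). In both genes the BirA control arrays spread more widely than the Tgif1 OE arrays and enclosed them. Ern1, with 5.64, 5.84, 5.62 and 5.46 on Tgif1 OE against 5.64, 5.75, 5.80 and 5.54 on BirA control, had a change of -0.04 ± 0.08 (adjusted p = 0.791). Atf6 read 7.15, 7.05, 7.19 and 7.29 on Tgif1 OE, against 7.22, 7.36, 7.49 and 7.42 on BirA control (-0.20 ± 0.07), and its adjusted p was 0.0540 without and 0.0171 with the replicate number as a block.

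The arrays of this arm fall into pairs by replicate number, which the labels do not explain, and several ER genes differ between them in every group. Herpud1 was lower on replicates 3 and 4 than on replicates 1 and 2 by -0.90 on Tgif1 OE, -1.08 on Tgif2 OE and -0.88 on BirA control. It read 8.08, 8.15, 7.31 and 7.12 on Tgif1 OE, against 9.09, 8.70, 8.02 and 8.01 on BirA control. Within each pair the Tgif1 OE arrays were lower, by -0.78 for replicates 1 and 2 and by -0.80 for replicates 3 and 4, although the pooled test did not pass (-0.79 ± 0.32, adjusted p = 0.0958). With the replicate number as a block it passed (adjusted p = 5.07e-05), though pairing by single number, beyond the array pairs, was assumed and not shown. In the pooled test a second Herpud1 probe set passed as lower on Tgif1 OE (-0.53 ± 0.16, adjusted p = 0.0310 over all probe sets). The ligase Syvn1 was also lower on replicates 3 and 4, by -0.33, -0.57 and -0.51 on Tgif1 OE, Tgif2 OE and BirA control, and Pdia3 was higher there by 0.45, 0.25 and 0.19. Of the 36 genes, 24 had the same sign of this difference in all 3 groups, 16 of them higher and 8 lower on replicates 3 and 4. The same share was not counted over all genes, so nothing particular to the ER genes is read from it. The 5′ minus 3′ difference of the Gapdh control probe sets moved with the pairs, at -0.24 and -0.34 on replicates 1 and 2 and -0.02 and -0.08 on replicates 3 and 4 of Tgif1 OE, -0.17 and -0.19 and then -0.04 and -0.06 on Tgif2 OE, and -0.11 and -0.13 and then -0.05 and -0.04 on BirA control. That of Actb was likewise nearer to 0 on replicates 3 and 4 in all 3 groups, and the part of either in the ER gene values was not tested. Edem1, a mannosidase-like degradation factor, read 8.37, 8.42, 8.66 and 8.69 on Tgif1 OE, against 8.29, 8.12, 8.34 and 8.18 on BirA control, with no overlap (0.31 ± 0.11); its adjusted p was 0.0551, and 0.0105 with the replicate block.

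**Figure D4:**
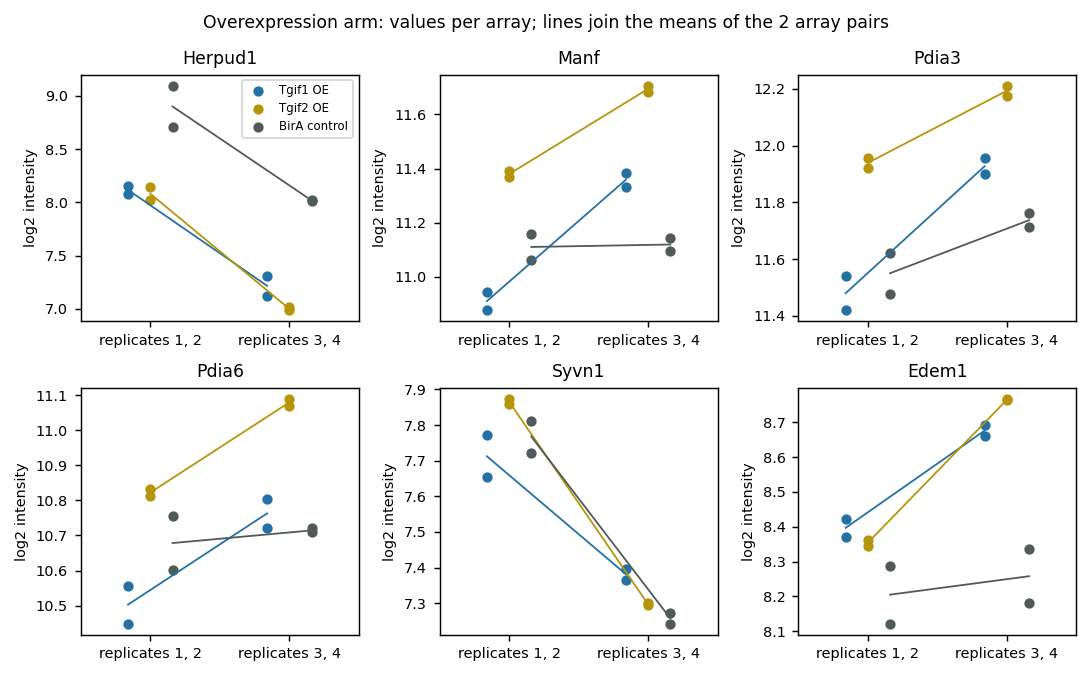
Log2 intensity (vertical axes, which do not start at 0) of Herpud1, Manf, Pdia3, Pdia6, Syvn1 and Edem1 in the overexpression arm, with replicates 1 and 2 on the left and replicates 3 and 4 on the right of each panel; points are arrays, lines join the pair means, and colours give Tgif1 OE, Tgif2 OE and BirA control. Herpud1 and Syvn1 fall from left to right in all 3 groups, and for Manf the Tgif1 OE line lies below BirA control on the left and above it on the right.

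The Tgif1 OE change itself differed between the pairs for 2 of the 36 genes, where 3.91% of all genes did so. For Manf, a secreted stress-response factor, it was 0.24 on the later-numbered pair and -0.20 on the first (difference 0.44 ± 0.07, adjusted p = 0.00991). For Creld2 it was 0.11 and -0.30 in the same order (difference 0.41 ± 0.09, adjusted p = 0.0306). With 1 array left out the count ran from 0 to 3, being 0 without Tgif1 OE replicate 3, 1 without any other Tgif1 OE array, and 1 without BirA control replicate 1, 3 or 4. Changes of the 7 genes that passed kept their direction within both pairs: -0.30 in replicates 3 and 4 and -0.62 in replicates 1 and 2 for Xbp1, -0.20 and -0.37 for Ssr2, -0.28 and -0.37 for Eif2ak3, -0.11 and -0.25 for Pdia4, -0.14 and -0.27 for P4hb, 0.25 and 0.33 for Dnajc10, and 0.24 and 0.19 for Derl1. The 7 genes had been called on these same arrays, so a shared direction in both pairs is no separate support. A random block for the array pair left 0 genes higher and 2 lower (Xbp1 and Ssr2), 3 being higher at an unadjusted p under 0.05. Leaving out Tgif1 OE replicate 2 gave 1 higher and 2 lower, leaving out BirA control replicate 1 gave 3 lower, and leaving out BirA control replicate 3 or 4 gave 1 higher.

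Around the list, 13 of the 67 other ER genes were higher on Tgif1 OE than on BirA control and 3 lower. Serpinh1, the collagen chaperone Hsp47, was the most raised (1.21 ± 0.12, adjusted p = 5.37e-06), and Kdelr3, a receptor that returns ER proteins from the Golgi, was the most lowered (-1.15 ± 0.13, adjusted p = 3.05e-05). Of the 12 stress-signalling genes 1 was higher and 5 lower, among them Chac1, which encodes an enzyme that breaks down glutathione (-1.13 ± 0.34, adjusted p = 0.0278), and Asns (-1.06 ± 0.12, adjusted p = 3.05e-05). Of the 24 chaperones outside the ER 0 were higher and 2 lower, the small heat shock gene Hspb1 (-0.59 ± 0.05, adjusted p = 1.69e-06) and Hspa9 (-0.25 ± 0.05, adjusted p = 0.00337). Fibroblast markers moved in the same comparison: 6 of 13 were higher on Tgif1 OE and 0 lower, with a summed intensity of 1531 to 2668, against 449 to 555 on BirA control, and 9 of the 13 below a log2 intensity of 6 on Tgif1 OE. Their part in the Serpinh1 value or in any other was not tested.

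The knockdown and Tgif1 OE responses were then compared with each other, which uses no array more than once because each arm has its own controls. The knockdown change exceeded the Tgif1 OE change for 13 of the 36 genes and fell short of it for 1, where these shares were 13% and 14.6% of all genes. The median difference was 0.19 for the 36 and -0.06 for all genes. Xbp1 differed by 0.98 ± 0.15 (adjusted p = 1.65e-04), Ssr2 by 0.91 ± 0.08 (adjusted p = 1.79e-06), Eif2ak3 by 1.03 ± 0.18 (adjusted p = 4.74e-04) and Pdia4 by 0.46 ± 0.09 (adjusted p = 0.00125). These 4 genes passed as higher on Tgif1 KD and as lower on Tgif1 OE. Atf6 differed by 0.91 ± 0.12 (adjusted p = 5.70e-05), Sel1l by 0.68 ± 0.17 (adjusted p = 0.00675) and Hspa5 by 0.40 ± 0.11 (adjusted p = 0.0114), these having passed in the knockdown alone. Pdia6, Creld2, Calr, Canx and Derl2 differed by 0.37 to 0.49. Of the 14 genes that differed, 6 (Hspa5, Calr, Xbp1, Atf6, Sel1l and Ssr2) held in all 21 alternative settings. The calls of Pdia6 and Creld2 were lost without any 1 of the 4 knockdown-arm arrays, and that of Canx without certain ones. Those of Pdia4, Canx, Eif2ak3 and Derl2 were lost with the mean of their probe sets. Herpud1 had the largest difference, 1.72 ± 0.55 (adjusted p = 0.0295), although the probe set used passed in neither comparison by itself. Its call was lost without any 1 of the 4 knockdown-arm arrays, Tgif1 OE replicate 3 or 4, or BirA control replicate 1 or 2 (adjusted p up to 0.111). Dnajc10 was the single gene with a lower knockdown response (-0.42 ± 0.12, adjusted p = 0.0171). That call was lost without Tgif1 KD replicate 2, without shControl replicate 1 and without shControl replicate 2, each of which left 0 lower genes and 1 at an unadjusted p under 0.05. The higher count was 9 to 15 with 1 array left out.

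**Figure D5:**
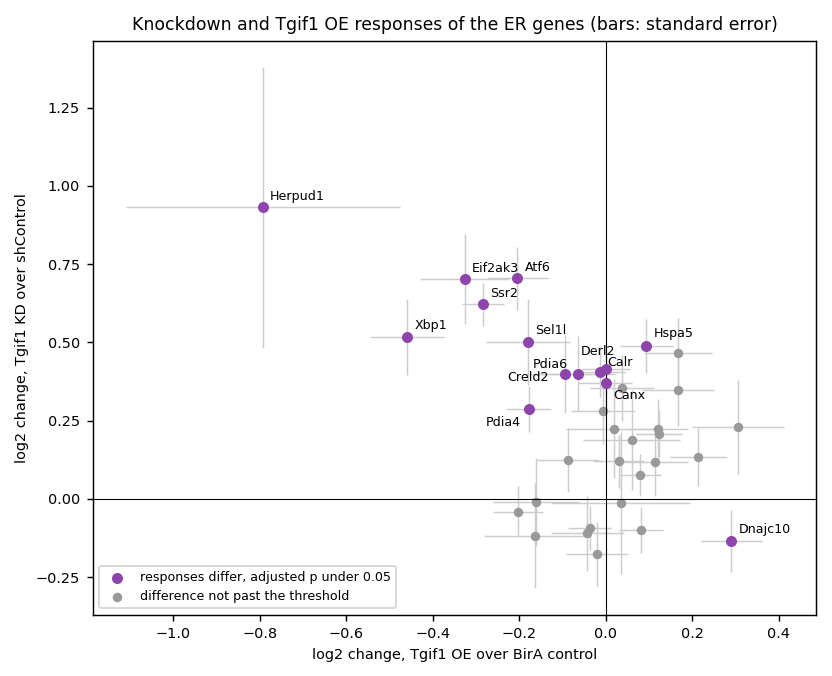
Log2 change of each ER gene for Tgif1 KD over shControl (vertical axis) against that for Tgif1 OE over BirA control (horizontal axis), with standard errors; purple points are the 14 genes whose responses differ at an adjusted p under 0.05. Herpud1, Xbp1, Eif2ak3, Ssr2, Atf6, Sel1l and Pdia4 lie at the upper left, and Dnajc10 lies at the lower right.

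On the Tgif2 OE arrays the deposited values are higher over the whole array, with a median over all genes of 0.12 above BirA control. Relative changes here are net of that median, and each p-value is for the change before it was taken off. With the deposited values 16 of the 36 ER genes were higher than on BirA control and 4 lower, where 28.7% of all genes were higher and 6.69% lower. After quantile normalization 5 were higher and 6 lower, where the shares over all genes were 13.8% and 13%. All 5 and 4 of the 6 had also passed with the deposited values. The median change of the 36 was 0.10 as deposited, which is below that of all genes.

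Eif2ak3 and Sel1l were lower and Dnajc10, Hsp90b1 and Ssr1 higher under all 19 alternative settings. Eif2ak3 read 8.07, 7.88, 7.57 and 7.80 on Tgif2 OE, against 8.94, 8.80, 8.60 and 8.64 on BirA control, a relative change of -1.03 (SE 0.10, adjusted p = 1.32e-05). Sel1l read 6.37, 6.43, 6.58 and 6.55 on Tgif2 OE, against 6.83, 6.78, 7.14 and 6.84 on BirA control (relative change -0.53, SE 0.10, adjusted p = 0.00426). No Tgif2 OE array reached the lowest control array for either gene. A second Sel1l probe set also passed as lower (-0.50 ± 0.13 before the median was taken off, adjusted p = 0.00768 over all probe sets). The other Sel1l probe sets changed by -0.23 and 0.03 and did not pass. For Eif2ak3 a dim probe set (mean 3.40) passed as lower (-0.32 ± 0.11, adjusted p = 0.0328), and another (mean 3.66) changed by 0.11 and did not pass. Dnajc10 read 9.95, 9.91, 10.09 and 10.08 on Tgif2 OE, against 9.40, 9.30, 9.48 and 9.59 on BirA control (relative change 0.45, SE 0.07, adjusted p = 3.20e-05). Hsp90b1 read 12.74, 12.77, 12.92 and 12.68 on Tgif2 OE, against 12.58, 12.42, 12.24 and 12.36 on BirA control (relative change 0.26, SE 0.07, adjusted p = 0.00127). Ssr1 read 11.47, 11.50, 11.36 and 11.34 on Tgif2 OE, against 11.22, 11.17, 10.98 and 10.99 on BirA control (relative change 0.21, SE 0.07, adjusted p = 0.00200). In these 3 genes every Tgif2 OE array was above every control array. Of these 3 genes, other probe sets bear out only Dnajc10, whose other 2 also passed. The second Hsp90b1 probe set changed by 0.17 ± 0.10 before the median was taken off (adjusted p = 0.211 over all probe sets). The other 2 of Ssr1 changed by 0.14 and 0.02 in the same way and did not pass. Hyou1 and Derl2 were the others that stayed higher after quantile normalization, with relative changes of 0.15 and 0.18. Both lost their calls with the mean of their probe sets (adjusted p = 0.382 and 0.0726).

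Herpud1 was lower on Tgif2 OE within each array pair. It read 8.02, 8.14, 6.99 and 7.01 on Tgif2 OE, against 9.09, 8.70, 8.02 and 8.01 on BirA control (relative change -1.04, SE 0.32, adjusted p = 0.0352). Its pairs overlap only across pair numbers, replicates 1 and 2 of Tgif2 OE lying at the level of replicates 3 and 4 of BirA control. Ssr2 was lower as well (relative change -0.27, SE 0.05, adjusted p = 0.0225). Several chaperone genes were higher as deposited but did not pass after quantile normalization. Manf read 11.39, 11.37, 11.68 and 11.71 on Tgif2 OE, against 11.16, 11.06, 11.10 and 11.14 on BirA control, and Pdia3 read 11.92, 11.96, 12.18 and 12.21 on Tgif2 OE, against 11.62, 11.48, 11.76 and 11.71 on BirA control. Neither overlaps, and both had a relative change of 0.30 and passed as deposited (adjusted p = 0.00843 and 0.00901), but not after quantile normalization (0.0739 and 0.0784). Hspa5 read 13.21, 13.21, 13.21 and 13.20 on Tgif2 OE, against 13.13, 13.01, 12.84 and 12.84 on BirA control (relative change 0.13, SE 0.06, adjusted p = 0.00543), and after quantile normalization its adjusted p was 0.118. Edem1 had a relative change of 0.21 (adjusted p = 0.0261) and Spcs2 of 0.18 (adjusted p = 0.00659), and neither passed after quantile normalization. Xbp1 averaged 10.91 ± 0.08 on Tgif2 OE and 11.01 ± 0.20 on BirA control (SD, n = 4 each), with overlap (relative change -0.21, adjusted p = 0.413). Atf6 read 7.07, 7.17, 7.30 and 7.22 on Tgif2 OE (relative change -0.30), and passed after quantile normalization (adjusted p = 0.00942) and with the replicate block (0.0192), but not as deposited (0.0551). Ern1 read 5.84, 5.64, 5.86 and 5.78 (relative change -0.02, adjusted p = 0.393). The count of lower genes was 2 without BirA control replicate 2.

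Among other ER genes on Tgif2 OE, 24 of 67 were higher and 5 lower as deposited, and 11 higher and 10 lower after quantile normalization. Serpinh1 was again high (relative change 0.75, adjusted p = 5.72e-05) and Kdelr3 low (relative change -1.38, adjusted p = 8.36e-06). The signal peptidase gene Sec11c was lower (relative change -0.80, adjusted p = 2.80e-05). Of the 12 stress-signalling genes 2 were higher and 5 lower under either scaling, and Asns had a relative change of -1.08 (adjusted p = 4.29e-05). Fibroblast markers summed to 905 to 2189 on Tgif2 OE, against 449 to 555 on BirA control, with 6 of 13 higher as deposited (3 after quantile normalization), 0 lower and 9 below a log2 intensity of 6 on Tgif2 OE. Primitive endoderm markers summed to 4315 to 4883 on Tgif2 OE, against 3427 to 3701 on BirA control, with 6 of 12 higher and 2 lower as deposited (3 and 2 after quantile normalization) and 8 below a log2 intensity of 6 on Tgif2 OE. The part of either list in these values was not tested. Because both overexpression comparisons use the same BirA control arrays, their values are given side by side here and their overlap is not counted.

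The direct comparison of Tgif1 OE with Tgif2 OE does not use the controls. As deposited, 1 of the 36 genes was higher on Tgif1 OE and 13 lower, where 2.25% of all genes were higher and 17.4% lower, with an all-gene median of -0.10. After quantile normalization 3 were higher and 0 lower, where the shares were 5.41% and 4.55%, and 2 were lower at an unadjusted p under 0.05. Eif2ak3 was the gene that passed both ways, with 8.59, 8.41, 8.30 and 8.37 on Tgif1 OE, against 8.07, 7.88, 7.57 and 7.80 on Tgif2 OE (relative change 0.69, SE 0.10, adjusted p = 0.00154). All Tgif1 OE arrays were above all Tgif2 OE arrays. Sel1l and Ssr4 were the others that were higher after quantile normalization (0.34, adjusted p = 0.0346, and 0.20, adjusted p = 0.0229). Sel1l also passed as deposited with the replicate block (adjusted p = 0.0230), which gave 2 higher genes and 15 lower ones, Spcs2 and Spcs3 being added (0.0156 and 0.0373). Xbp1 was lower on Tgif1 OE as deposited (relative change -0.26, SE 0.09, adjusted p = 0.00978), its 4 Tgif1 OE arrays at 10.67 or less and its 4 Tgif2 OE arrays at 10.80 or more, but after quantile normalization its adjusted p was 0.126. Manf, Pdia3, Hsp90b1, Pdia6, Derl2, Dnajc10, Pdia4 and Canx were lower as deposited with relative changes of -0.30, -0.26, -0.24, -0.21, -0.19, -0.17, -0.12 and -0.11, and none of them passed after quantile normalization. The lower count was 6 without Tgif1 OE replicate 2 (with 2 higher), 8 without Tgif1 OE replicate 1, and 7 without Tgif2 OE replicate 3 or replicate 4.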

How the data were processed

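The authors deposited a log2 intensity for each probe set, for which RMA is named, per the submitters' processing notes, along with limma for the Tgif2 samples. Versions, and whether all arrays were normalized together, are not stated in the labels. Values ran from 2.19 to 14.79. The Tgif2 OE column medians averaged 0.08 above those of the other arrays, so results after quantile normalization are given along with those of the deposited values. The 22690 probe sets comprised 64 controls, 20380 with 1 symbol, 691 with several and 1555 with none. Each gene was read from its probe set with the highest mean; 4956 of 12393 genes had more than 1, as did 21 of the 36 ER genes, and 5 of the 36 rest on a probe set whose suffix marks possible cross-hybridization. No filter on dim genes was used.

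All 16 arrays entered 1 linear model that estimates each group's mean (limma 3.58.1, R 4.3.3), with Benjamini-Hochberg adjustment over all genes of a comparison and a threshold of 0.05. Values after ± are standard errors unless an SD is named. Tested on simulated data with 12393 genes, changes of 0.25, 0.5 and 1 log2 were recovered in 2.99%, 53.7% and 89.4% of cases for Tgif1 KD, and in 16.4%, 77.6% and 98.5% for Tgif1 OE. The simulated data held 67, 67 and 66 changed genes of these sizes, with independent noise. In the real knockdown comparison 1552 genes were called higher and 1594 lower, which makes the adjusted threshold looser there. The recovery rates are those of the simulated setting and do not give the power of the real tests. The number of arrays limits the precision.

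Every one of the 36 genes could be named. By rule, values on every array are for Hspa5, Hsp90b1, Xbp1, Ern1, Eif2ak3, Atf6 and, per comparison, up to 10 genes past the threshold with the largest change, with some given by range or change alone for length. From other lists up to 2 genes each per comparison were named. The genes and lists were chosen with earlier results of these data known. Alternatives were scaling, variance model, probe set rule, filter, arrays in the fit, blocks and leaving out arrays.

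Replicate numbers were checked for pairing: residuals of same-numbered arrays had correlations of 0.32 to 0.56 in 12 comparisons of the overexpression arm, where the numbers were taken as pairing the arrays, and of -0.004 in the knockdown arm, where they were not. An array's own number gave the best match in 2 of the 12. In the rest the best match was the other array of the same pair, and correlations with that array were 0.32 to 0.58. The residuals thus show the array pairs and not single numbers. Values with the replicate block rest on a pairing by number that was assumed. Promoter sequences are RefSeq's, build GRCm38.p6, matched by symbol.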

Additional observations from a re-analysis of the deposited data

Results flagged for a closer look

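Single arrays stood far from the other 3 of their group in 6 of 108 groups of 4 arrays examined for the 36 ER genes, and chance alone marks about 1 in 20 such groups. Pdia4 read 10.135 on BirA control replicate 1, with the other controls at 9.95 to 9.97. Calr read 12.028 on the same array, with the others at 11.80 to 11.83, and 12.018 on Tgif2 OE replicate 2, with the others at 11.94. BirA control replicate 2 was low for Derl2, at 9.273 with the others at 9.37 to 9.39, and for Sec61b, at 12.606 with the others at 12.69 to 12.70. Sel1l read 7.143 on BirA control replicate 3, with the others at 6.78 to 6.84.

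The Tgif1 OE effect differed between array pairs for Manf, by 0.44 log2 between replicates 3 and 4 and replicates 1 and 2, and for Creld2, by 0.41, each by a test of the difference itself.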

How the results depend on the processing

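In the knockdown 7 of the 15 calls (Hspa5, Calr, Xbp1, Atf6, Derl2, Ssr2 and Ssr3) held under all 11 alternatives; the count ran from 9 to 11 with 1 array left out and 0 genes were lower under every alternative. The replicate block gave 18 higher there, though the numbers did not pair those arrays. In the Tgif1 OE comparison the counts ran from 1 to 3 higher and 2 to 5 lower with 1 array left out. They were 3 lower with only the groups compared, 6 higher and 8 lower with the array pair as a fixed block, 0 higher and 2 lower with it as a random block, 1 higher and 8 lower with replicates 1 and 2 alone, and 8 higher with replicates 3 and 4 alone. The Tgif2 OE counts ran from 11 to 16 higher and 2 to 4 lower with 1 array left out. They were 5 higher after quantile normalization, 8 higher after median centring, 2 lower with only the groups compared or with the random block, and 10 higher with replicates 1 and 2 alone. For Tgif1 OE against Tgif2 OE they ran from 1 to 2 higher and 6 to 11 lower with 1 array left out. They were 3 higher and 0 lower after quantile normalization, 3 higher and 1 lower after median centring, 6 lower with only the groups compared, 2 higher with the replicate block or the fixed pair block, and 1 lower with the random block. Pdia4 reversed there with the mean of its probe sets (change 0.0783). The difference between the knockdown and Tgif1 OE responses ran from 9 to 15 higher and 0 to 1 lower. The count of 2 genes that differ between array pairs was 7 with trended and robust variance, 4 without the dimmest genes, and 0 to 3 with 1 array left out; these settings were chosen after seeing the data. The replicate block changed no other count by more than 1.5 times. The cause of these moves was not tested.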
